A study of Mus musculus with 186 samples.

Results

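The 10 genes described here, Trp63, Snai2, Id4, Bcl11b, Sox9, Sox10, Tbx2, Srf, Myocd and Mef2c, encode transcription factors and co-regulators linked to the basal lineage of the mouse mammary gland. They were taken by name, and all 10 were found by Entrez gene identifier among the 25275 genes with a symbol in the count file of each cell. All 10 were also among the 14773 genes kept for reaching 1 CPM (reads of a gene per 1000000 assigned reads) in 3 or more cells. Epithelial cells of untreated adult female FVB/NJ mice were sorted as basal (Lin- CD29hi CD24+) or luminal (Lin- CD29lo CD24+), where Lin- excludes cells with CD31, CD45 or TER119 on their surface, and captured singly on the Fluidigm C1 system. The deposit holds 96 basal and 90 luminal cells from 8 mice, of which 72 and 76 had enough reads and genes by the study's own thresholds. Basal cells lay on PCR plates A (50 cells) and B (22 cells) and luminal cells on plates B (24 cells) and C (52 cells). No label ties a cell to a mouse, so each population counts as 1 sample, no test between populations could be made, and mouse, plate and population cannot be fully told apart.

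The mammary duct has an inner layer of luminal cells and an outer layer of basal cells, most of which are contractile myoepithelial cells that squeeze out milk. The transcription factor p63, encoded by Trp63, directs keratin and adhesion genes of the basal layer in many stratified epithelia. The contractile genes of smooth muscle and of myoepithelial cells are driven by SRF, which binds a DNA element named the CArG box and is helped by coactivators such as myocardin, the product of Myocd.

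The passing cells held between 69933 and 3226961 assigned read pairs, with a median of 1189250 in basal and 1459610 in luminal cells. The 8 basal markers summed to 14980 CPM in the basal and 257 CPM in the luminal population, and the 9 luminal markers to 900.0 and 13260 CPM. Single cells went against their label. Basal cell 90 had 1.39 CPM of basal and 7035 CPM of luminal markers, basal cell 72 had 6 of 10 endothelial markers, and luminal cell 63 had reads of 7 of the 8 basal markers, with Acta2 at 4372 CPM. At least 4 of 10 endothelial or pericyte markers were detected in 6 basal cells, all of plate B, and in 6 luminal cells, 5 of them of plate C. At least 4 of 10 fibroblast markers were detected in 3 basal and 21 luminal cells, and no cell had 4 immune markers. Leaving out basal cell 90 or basal cell 72 alone moved none of the 10 ratios across the 2-fold line used below.

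Reads were summed over the cells of a population, and a gene was called when its CPM, with 1 CPM added, differed at least 2-fold between the populations. Of the 10 factors, 4 were called higher in basal cells, namely Trp63, Snai2, Id4 and Bcl11b, against a background of 18.3% of all 14773 genes. Srf and Myocd were called higher in luminal cells, where the background was 28.4%. Sox9, Sox10, Tbx2 and Mef2c lay within 2-fold. Over the 10 factors the log2 ratios of luminal over basal CPM had a median of -0.43, and over all genes tested one of 0.18. On plate B alone, the only plate with both populations, 4 factors were again called basal (background 17.2%) and 2 luminal (background 41.4%), but the members differed: Mef2c took the place of Bcl11b, and Sox10 that of Myocd.

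**Figure D1:**
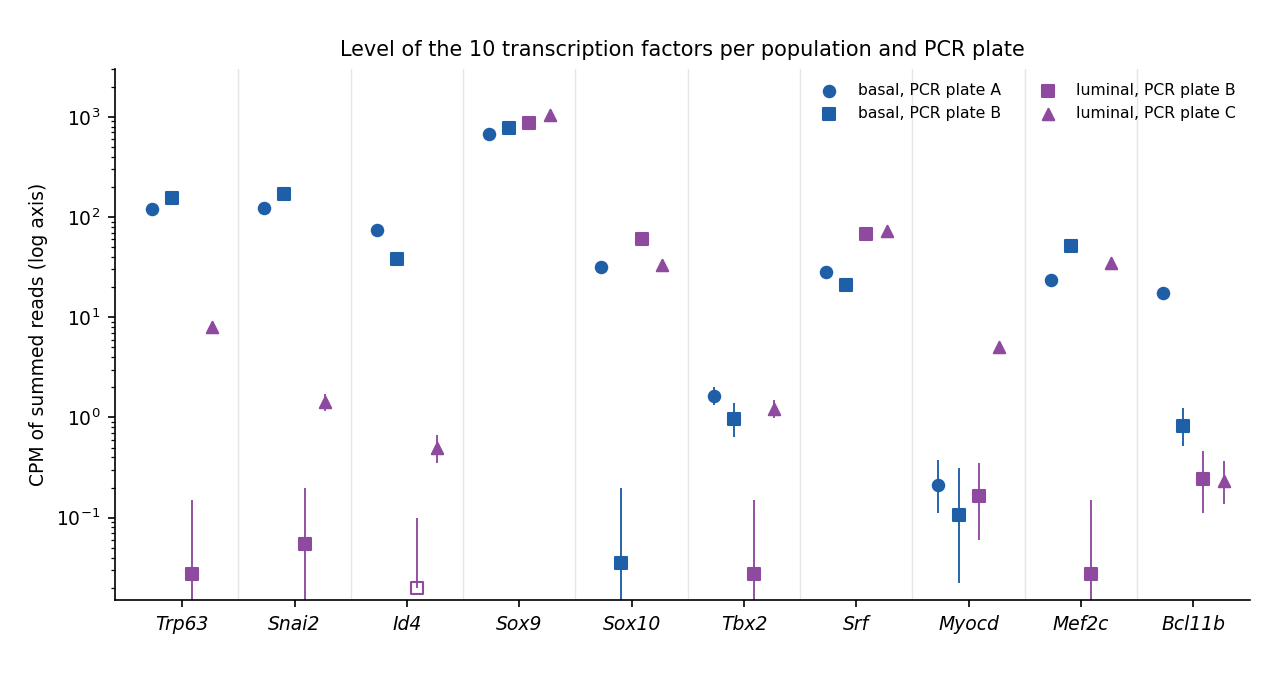
CPM of the summed reads of each factor (log axis) for basal cells of PCR plates A and B (blue) and luminal cells of plates B and C (purple), with exact 95% Poisson intervals for counting error, some of which run off the axis. The open symbol marks Id4 with no read in 24 luminal cells, and Trp63, Snai2 and Id4 are the factors whose basal symbols both lie far above both luminal symbols.

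Trp63 (chr16:25683763-25892088, GRCm38.p6), the p63 gene, was read in 55 of 72 basal cells at full depth. Its level per basal cell ran from 0 through a median of 17.3 CPM to 1881 CPM, and per luminal cell from 0 through a median of 0 to 464 CPM. Only 2 of 76 luminal cells exceeded the basal median, so the populations overlapped at their low ends and in these 2 cells. The summed level was 132 CPM (95% Poisson interval 130 to 134) in basal cells and 5.37 CPM (4.96 to 5.82) in luminal cells, with a log2 ratio of luminal over basal of -4.38 and a 24.6-fold difference (22.6 to 26.7). Reads carry no molecular identifiers, so these and all later intervals cover counting error only. Luminal cell 63, the cell with Acta2 and other basal markers and with 4 of 10 fibroblast markers, held 569 of the 613 luminal Trp63 reads. Without it the luminal level was 0.390 CPM and the log2 ratio -6.58. On plate B, 22 basal cells had 155 CPM, and the 24 luminal cells had 1 read between them.

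Because deeper libraries detect more genes, each cell was also thinned to 50000 reads. Trp63 was then detected in 36 of 72 basal cells, or 50.0% (Clopper-Pearson 95% interval 38.0 to 62.0), and in 3 of 76 luminal cells, or 3.95% (0.822 to 11.1). In 10 random thinnings the basal number ran from 36 to 41. Among all genes with a basal level of 100 to 300 CPM, the median share of detecting basal cells was 48.6%, and the share of Trp63 lay within the quartiles of its level class (37.5 to 59.7). The reads were unevenly spread, as basal cells 61 and 81 held 17.0% and 13.2% of them.

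Snai2 (chr16:14705852-14709395) encodes the zinc-finger repressor SLUG of the Snail family, known for its part in epithelial-mesenchymal transition. It was unread in 36 of 72 basal cells, whose median was 0.441 CPM, while the highest basal cell reached 1328 CPM. The luminal median was 0 and the highest luminal cell reached 36.1 CPM, a value that 23 of 72 basal cells exceeded. Summed, Snai2 stood at 138 CPM (135 to 140) in basal and 0.982 CPM (0.808 to 1.18) in luminal cells, 140.3-fold apart (117 to 171; log2 ratio -6.13). Luminal cells 25 and 71, which carried at least 8 endothelial and 7 pericyte markers each, held 102 of the 112 luminal reads. With all 12 cells of endothelial or pericyte markers left out, 10 luminal reads were left in 70 cells and the log2 ratio was -7.02. At 50000 reads Snai2 was found in 28 basal cells, 38.9% (27.6 to 51.1), and 2 luminal cells, 2.63% (0.320 to 9.18).

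Id4 (chr13:48261116-48266028), a helix-loop-helix protein without a DNA-binding region that restrains other helix-loop-helix factors, was read in 48 of 72 basal cells. Basal cells ranged from 0 through a median of 5.50 CPM to 726 CPM. In luminal cells 4 of 76 had any read, the highest at 20.7 CPM, and 27 basal cells lay above that value. The sums were 62.6 CPM (60.9 to 64.3) and 0.333 CPM (0.236 to 0.457), a 188-fold difference (137 to 266; log2 ratio -5.58). Luminal cell 25 held 35 of the 38 luminal reads. On plate B no luminal cell had a read, and the basal level of 38.3 CPM was at least 470.0-fold higher than the 3 counts that a total of 0 allows. After thinning, 30 basal cells (41.7%, 30.2 to 53.9) and 1 luminal cell had a read. The annotation places A330033J07Rik over part of Id4, and smaller or predicted RNAs over parts of Trp63, Srf, Myocd and Mef2c, so reads from those stretches may belong to either gene.

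**Figure D2:**
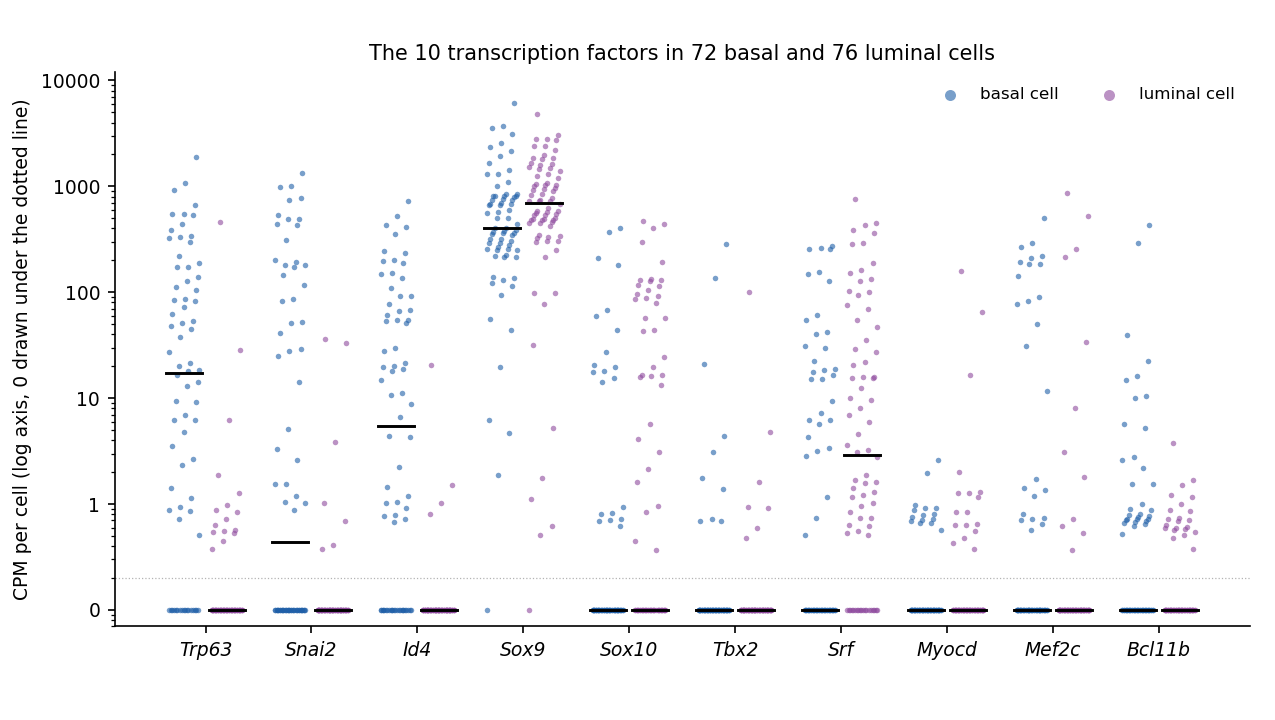
CPM of each factor in each of 72 basal (blue) and 76 luminal (purple) cells on a log axis, with cells at 0 drawn under the dotted line and the median of each population as a black bar. Trp63 and Id4 have basal medians of 17.3 and 5.50 CPM over luminal medians of 0, Sox9 is high in both populations, and 6 factors have a basal median of 0.

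Bcl11b (chr12:107910403-108004145), a zinc-finger repressor best known from T cell development, was called basal on the reads of a few cells of plate A. Its basal median was 0 and its highest basal cell stood at 430 CPM, and no luminal cell exceeded 3.79 CPM. Basal cells 56 and 3 held 429 and 415 of the 1010 basal reads, and basal cell 56 also had 9 of 10 fibroblast markers. The sums were 12.0 CPM (11.3 to 12.8) and 0.237 CPM (0.156 to 0.344), with a log2 ratio of -3.39. That ratio was -2.70 without basal cell 56 and -2.72 without basal cell 3. On plate B it was -0.55, with 23 basal and 9 luminal reads. At full depth Bcl11b was read in 32 basal cells (44.4%) but also in 22 luminal cells (28.9%), where no cell had over 3 reads. At 50000 reads it was found in 7 basal cells, 9.72% (4.00 to 19.0), and in none of 76 luminal cells (Clopper-Pearson upper limit 4.74%, and 3 cells of the total would be 3.95%). In other thinnings the luminal number ran up to 3.

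Sox9 (chr11:112782210-112787757), an HMG-box factor known in the mammary gland from stem and luminal progenitor cells, had the highest level per length of exons of the 10 in both populations. Every basal cell but 1 and every luminal cell but 1 had a read. The basal cells ran from 0 through 403 to 6163 CPM and the luminal cells from 0 through 702 to 4765 CPM, an almost complete overlap in which 57 of 76 luminal cells lay above the basal median. The sums were 707 CPM (701 to 712) in basal cells against 979 CPM (973 to 985) in luminal cells, a log2 ratio of 0.47. The ratio was 0.16 on plate B and 0.62 between basal plate A and luminal plate C. At 50000 reads 67 basal cells (93.1%, 84.5 to 97.7) and 71 luminal cells (93.4%, 85.3 to 97.8) had a read. Basal cell 72, with its 6 endothelial markers, was the basal cell without Sox9.

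Sox10 (chr15:79154913-79164490), an HMG-box factor of the neural crest that is also found in mammary epithelium, differed in level between the basal cells of the plates. On plate A 20 of 50 basal cells had a read and the sum was 31.6 CPM (30.1 to 33.1). On plate B 1 of 22 basal cells had 1 read, or 0.0357 CPM. The luminal sums were 60.2 CPM on plate B and 33.0 CPM on plate C, with reads in 12 of 24 and 25 of 52 cells. Luminal cells of plate B were therefore 1685-fold above the basal cells of the same plate (302 to 66572, with 1 read in the lower group), while basal plate A and luminal plate C differed by a log2 ratio of 0.06. Over all plates the sums were 21.1 CPM (20.1 to 22.1) and 41.8 CPM (40.6 to 43.0), a log2 ratio of 0.95 that just missed 2-fold. Without any 1 of 5 basal cells (26, 32, 36, 37 or 40) it was 1.01 to 1.36 and passed. Basal cells ranged from 0 to 405 CPM and luminal cells from 0 to 475 CPM, both with a median of 0.

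Tbx2 (chr11:85832615-85841948), a T-box repressor of embryonic development, was close to unread. It had 120 basal reads in 10 cells and 95 luminal reads in 7 cells, or 1.43 CPM (1.18 to 1.71) and 0.833 CPM (0.674 to 1.02). Luminal cell 27, with all 10 endothelial markers, held 80 of the luminal reads. The log2 ratio of -0.40 became -1.10 without that cell and 0.02 without basal cell 47, which had 52 reads. Highest values were 285 CPM in basal cells and 101 CPM in luminal ones, and both medians were 0. After thinning, 5 basal cells and 1 luminal cell had a read.

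Srf (chr17:46546838-46558267), a MADS-box factor at the head of the contractile program and of immediate early genes, was higher in luminal cells. Basal cells ranged from 0 through a median of 0 to 274 CPM and luminal cells from 0 through 2.93 to 754 CPM, and 7 luminal cells lay above every basal cell. The sums were 25.7 CPM (24.6 to 26.8) and 70.6 CPM (69.0 to 72.1), a 2.74-fold difference (2.62 to 2.88) and a log2 ratio of 1.42. On plate B the log2 ratio was 1.64. Luminal cell 36 alone held 2434 of the 8050 luminal reads, and without it the log2 ratio was 0.95, under the 2-fold line. At 50000 reads 20 of 72 basal cells (27.8%, 17.9 to 39.6) and 27 of 76 luminal cells (35.5%, 24.9 to 47.3) had a read. At full depth 32 basal cells (44.4%) and 57 luminal cells (75.0%) had one, and the shares of the populations were not tested against each other.

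The promoter of Srf is shown because SRF is known to act through CArG boxes, and that of Myl9, the regulatory myosin light chain, because it is a listed contractile gene with a box in the same window. Both come from RefSeq (GRCm38.p6), with CArG boxes in capitals, written 5′ to 3′ on the strand of the gene. The Srf stretch, chr17:46556163-46556412 on the minus strand, ends just before the transcript start in that table, and its boxes begin at positions -82 and -62 from the start. It lies inside the gene span given above, since the annotated gene reaches further 5′ than this transcript start. The Myl9 stretch, chr2:156775214-156775407 on the plus strand, is 194 bases long and ends short of the transcript start. It has 1 box, which begins at position -161 from that start.
Srf: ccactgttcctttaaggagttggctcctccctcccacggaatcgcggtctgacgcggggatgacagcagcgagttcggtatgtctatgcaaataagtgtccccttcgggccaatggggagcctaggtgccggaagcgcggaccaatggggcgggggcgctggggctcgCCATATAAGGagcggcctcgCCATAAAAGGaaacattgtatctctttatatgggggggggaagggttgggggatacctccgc
Myl9: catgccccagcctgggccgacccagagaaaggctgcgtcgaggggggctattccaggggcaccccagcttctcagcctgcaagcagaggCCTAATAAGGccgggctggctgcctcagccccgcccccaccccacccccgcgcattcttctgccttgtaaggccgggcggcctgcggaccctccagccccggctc
The box is its own reverse complement in form, so a search of the one strand covers both. In windows of 250 bases before to 50 bases after the start, 1.81% of the 27025 genes in the table had a box, as did 2 of the 14 contractile genes in it (Myl9 and Vcl) and 1 of 4 immediate early genes (Egr2). Of the 10 factors the table held Srf, Id4, Mef2c and Bcl11b, and of these Srf alone had a match. Promoters of Trp63, Snai2, Myocd, Sox9, Sox10 and Tbx2 were not in it.

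Myocd (chr11:65173608-65269989), the coactivator of SRF in smooth and heart muscle, was not found at a level above single reads in basal cells. In 15 of 72 basal cells it had exactly 1 read each, 0.178 CPM in all (0.0998 to 0.294), and the highest basal cell stood at 2.61 CPM. Thinned to 50000 reads, no basal cell had a read (upper limit 4.99%, and 3 cells of the total would be 4.17%), and in other thinnings up to 2 did. Luminal cells had 392 reads, of which 269 were in luminal cell 25, 90 in luminal cell 34 and 16 in luminal cell 67. Cell 25, with all 10 endothelial and 9 pericyte markers, had Myocd at 159 CPM. Cells 34 and 67 had at most 2 markers of either list. Over all plates Myocd was called luminal at a log2 ratio of 1.91, and without cell 25 the ratio was 0.83, within 2-fold. On plate B, 3 basal and 6 luminal reads gave a luminal level 1.52 times the basal one, with a counting interval of 0.325 to 9.40 that includes equal levels.

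Mef2c (chr13:83504017-83667079), a MADS-box factor of muscle and endothelium, had nearly the same level in both populations, but in different kinds of cells. Basal cells ranged from 0 through 0 to 504 CPM and luminal cells from 0 through 0 to 858 CPM. The sums were 32.6 CPM (31.4 to 33.8) and 23.4 CPM (22.5 to 24.3), a log2 ratio of -0.46. In the luminal population the 6 cells with endothelial or pericyte markers held 99.4% of the 2667 reads, at 288 CPM, and the other 70 cells had 17 reads, or 0.162 CPM. Luminal cells 25, 55 and 27 had all 10 endothelial markers and 858, 525 and 213 CPM of Mef2c, and cell 33 had 4 pericyte markers and 256 CPM. Cells 55 and 33 also had all 10 fibroblast markers, cell 27 had 5 and cell 25 had 4. The 21 luminal cells with at least 4 fibroblast markers held 98.2% of the luminal reads, so the marker lists cannot be told apart in these cells. In the basal population the 6 such cells held 38.4% of the reads, at 166 CPM, and the other 66 cells still had 21.7 CPM with reads in 20 of them. Without these 12 cells the log2 ratio was -4.29, and Mef2c was called basal.

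**Figure D3:**
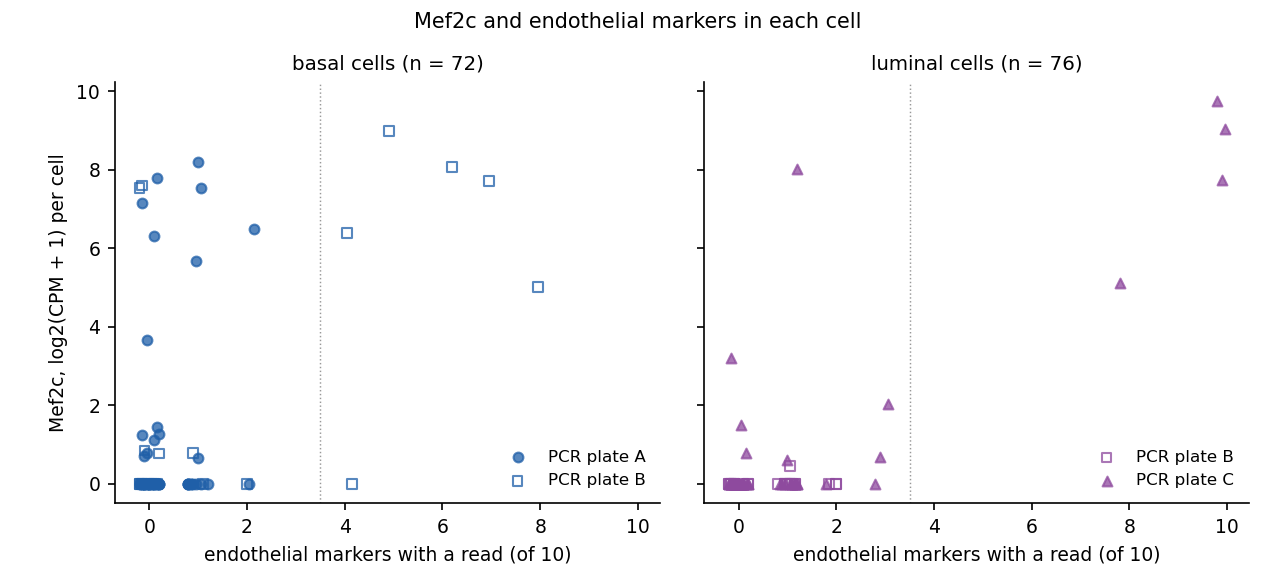
Mef2c level, as log2(CPM + 1), against the number of the 10 endothelial markers with a read, in each basal cell (left, PCR plates A and B) and each luminal cell (right, plates B and C). Luminal cells with a high level lie at 8 or more markers, apart from 1 cell at 1 marker (luminal cell 33), whereas basal cells with a high level lie both at 0 to 2 markers and, on plate B only, at 4 or more, where 1 of the 6 cells has no read.

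None of the 50 basal cells of plate A had 4 endothelial markers. The 10 markers summed to 0.535 CPM there, and Cdh5, Tie1 and Egfl7 had no read. The pericyte markers summed to 15.1 CPM in these cells. Mef2c stood at 23.4 CPM (22.2 to 24.7) on plate A, with reads in 15 cells and its highest at 294 CPM in basal cell 27. That cell had 2 of 10 fibroblast markers, at 579 CPM, and the 5 highest cells held 86.3% of the Mef2c CPM. The source of these reads was not tested. On plate B the endothelial markers summed to 420.1 CPM in basal cells and 2.99 CPM in luminal ones, and Mef2c to 51.0 CPM and 0.0271 CPM. Leaving out luminal cell 25 alone moved the log2 ratio over all plates from -0.46 to -1.51.

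Per length of exons, given as RPKM (CPM per kilobase), the order of the levels in basal cells was Sox9 (170.4 RPKM), Snai2 (68.4), Id4 (37.7), Trp63 (21.8), Sox10 (7.77), Srf (6.28), Mef2c (4.97), Bcl11b (1.52), Tbx2 (0.40) and Myocd (0.0348). The counting intervals of neighbours did not overlap, but single cells set part of this order. Without basal cell 40 Sox10 (5.77 RPKM) fell below Srf (6.38). On plate B Sox10 was last, at 0.0132 RPKM, Mef2c (7.76) stood above Srf (5.11), and Trp63 (25.6) above Id4 (23.1). In luminal cells the RPKM order began with Sox9 (236), Srf (17.2), Sox10 (15.4) and Mef2c (3.56), and ended with Tbx2 (0.234), Id4 (0.201) and Bcl11b (0.0299). There the intervals of Tbx2 and Id4 overlapped. Without luminal cell 36 Srf (12.4 RPKM) lay below Sox10 (15.9), as it did without luminal cell 11 (15.2 against 15.7) and on plate B (16.5 against 22.2). The luminal order below Mef2c also turned without luminal cell 25, 27 or 63. Snai2 and Trp63, whose CPM were nearly equal, differed in RPKM because the exons of Snai2 span 2014 bases and those of Trp63 6056.

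Between the basal cells of the plates, Sox10 and Bcl11b were at least 2-fold higher on plate A, against 41.7% of all genes. Mef2c was 2-fold higher on plate B, against 13.6%. There 1052 of its 1427 reads lay in the 6 basal cells with endothelial or pericyte markers, and the plate ratio without them was not computed. Sox10 differed most, with a log2 ratio of plate B over plate A of -4.98, followed by Bcl11b at -3.35. Id4 was at 74.7 CPM on plate A and 38.3 CPM on plate B, a log2 ratio of -0.95. The sums of Trp63 (120.5 and 155 CPM), Snai2 (122 and 170 CPM) and Sox9 (675 and 770 CPM) were slightly higher on plate B. Their medians per cell were lower there, at 20.9 and 3.83 CPM, 0.957 and 0 CPM, and 422 and 386 CPM. The 5 highest plate B cells held 95.5% of the CPM of Trp63 and 98.1% of that of Snai2. The median over all genes was -0.57, and plate A cells had more genes detected at 50000 reads, a median of 2896 against 1562.

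Variation between basal cells was mostly that of genes of like level. The coefficient of variation (CV, SD over mean of the CPM of 72 cells) was 1.31 for Sox9, 2.08 for Trp63 and 2.13 for Snai2. Genes at 300 to 1000 CPM had a median CV of 1.42, and those at 100 to 300 CPM one of 2.15. Id4 was steadier than its level class, with a CV of 1.97 against a median of 3.12 and a lower quartile of 2.49 for genes at 30 to 100 CPM. So was Srf, near the top of its class, with 2.45 against a lower quartile of 3.35 for genes at 10 to 30 CPM. Both were also found in more cells than most such genes, Id4 in 41.7% of thinned cells against an upper quartile of 33.3%, and Srf in 27.8% against 16.7%. Bcl11b (CV 5.03), Sox10 (3.48) and Tbx2 (5.86) lay within the quartiles of their classes. Over the 10 factors the median share of thinned basal cells with a read was 23.6%.

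Taking Trp63, Snai2 and Id4 jointly, 10 of 72 thinned basal cells had a read of all 3, 17 of 2, 30 of 1 and 15 of none. If the 3 genes were drawn independently, their shares would put 8.10% of cells at all 3 and 17.8% at none, and 13.9% and 20.8% were observed. At full depth 19 basal cells (26.4%, product of shares 25.5%) had all 3 and 4 had none. Gene by gene, basal cells without a read numbered 17 for Trp63, 36 for Snai2 and 24 for Id4 at full depth. The 4 cells with none of the 3 were basal cells 54, 55, 72 and 90. Cells 54 and 55 had 34163 and 23055 CPM of the 8 basal markers, whereas cells 72 and 90 had 223 and 1.39 CPM. In luminal cells 71 of 76 thinned cells had none of the 3, and 1 had 2 of them.

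**Figure D4:**
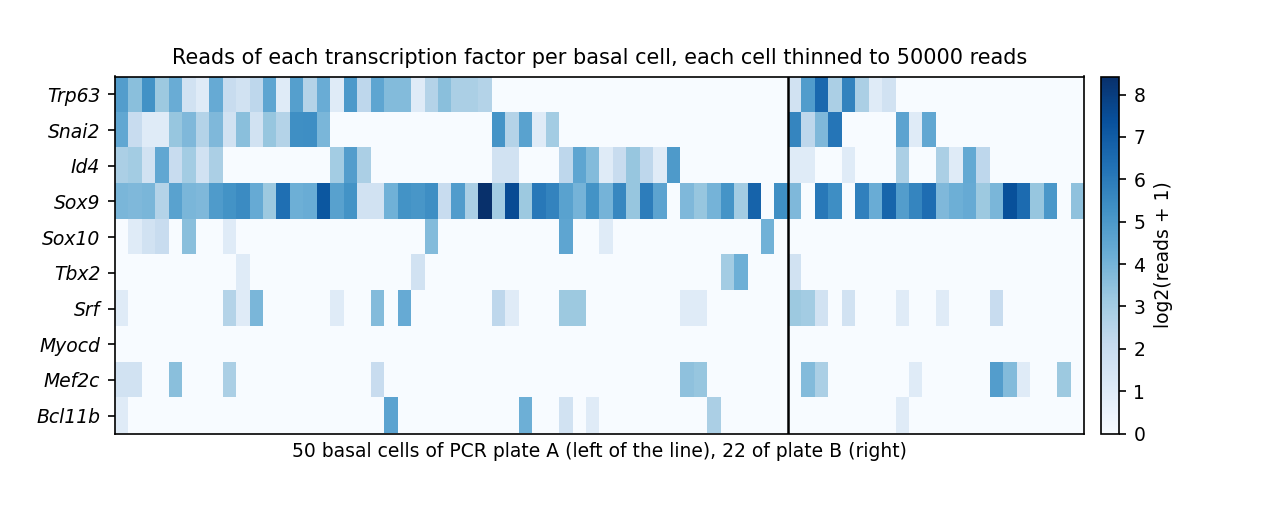
Reads of each factor in each basal cell after thinning to 50000 reads, as log2(reads + 1), with 50 cells of PCR plate A to the left of the black line and 22 of plate B to the right, sorted within a plate by whether Trp63, Snai2 and Id4 were read. Sox9 fills 67 of 72 columns, Myocd none, and Sox10 is read in 9 cells of plate A and in none of plate B.

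Counted over all 10 factors, a thinned basal cell had reads of between 1 and 7, with a median of 3, and a luminal cell of between 0 and 5, with a median of 2. At full depth the most was 9, in basal cell 20, where Trp63, Snai2 and Id4 were all read and 7076 genes were detected. Trp63 and Snai2 were read jointly in 20 thinned basal cells, where the product of their shares gives 14.0. Trp63 and Id4 shared 14 cells against 15.0, and Snai2 and Id4 13 against 11.7. At full depth the same pairs shared 28 cells against 27.5, 39 against 36.7 and 23 against 24.0. With 10 CPM required at full depth they shared 19 against 14.6, 19 against 18.4 and 13 against 12.8. The excess of Trp63 with Snai2 was thus not seen when any read at full depth counted, but was seen under the other settings.

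Correlations were taken over the 72 basal cells on log2(CPM + 10) at 50000 reads and are descriptions, since the cells share plates and mice and many values are 0. Among the 15 pairs of the 6 factors read in at least 10 thinned cells, Pearson's r ran from -0.19 (Id4 and Sox9) to 0.32 (Trp63 and Snai2). The latter was 0.31 on plate A, 0.33 on plate B, 0.34 as Spearman's rho and 0.22 once the number of genes detected per cell was accounted for. Trp63 itself had an r of 0.43 with the number of genes detected, Srf one of 0.36 and Sox9 one of -0.10. Srf had r between -0.09 and 0.19 with the 16 contractile genes that could be used, and Trp63 between -0.18 and 0.33 with 16 p63 target and adhesion genes. Values of this size in sparse counts show no relation that can be relied on.

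The genes whose basal pattern was most like that of a factor were ranked by Pearson's r among 3296 genes read in at least 20 thinned basal cells. For Trp63 these were Uhrf1 (0.52), Aggf1 (0.49) and Ptbp1 (0.48), with Uhrf1 at 0.60 on plate A and 0.29 on plate B. For Snai2 they were Atp6v1e1 (0.62), Ubqln2 (0.50) and Tubb4b (0.50), and for Id4 Smarcc2 (0.52), Cs (0.45) and Nasp (0.44). Sox9 was most like Rnf2 (0.36), Myc (0.32) and Scn7a (0.29). Srf was most like Pdlim5 (0.46), Cbfb (0.45) and Hdac2 (0.44), and Mef2c most like Fry (0.55), Golga4 (0.48) and Itpripl1 (0.44). These are the top values of a long ranking over 72 cells.

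Genes that p63 is known to control, and basal adhesion genes, followed the basal side. Of 18 listed, 13 were called higher in basal cells (background 18.3%) and 1, Fgfr2, in luminal cells (background 28.4%). Their median log2 ratio was -2.42. Krt5, a basal keratin, stood at 234 CPM in basal cells and 0.342 CPM in luminal ones. Igfbp3, which binds insulin-like growth factors, stood at 307 and 2.90 CPM. Col17a1, a hemidesmosome collagen, stood at 256 and 2.59 CPM, and Krt17, another keratin, at 1351 and 30.8 CPM. Fgfr2, a growth factor receptor, was at 219 CPM in basal cells against 489 CPM in luminal cells. On plate B the log2 ratios of Krt5, Igfbp3, Col17a1 and Krt17 were -6.98, -7.65, -6.75 and -5.25, but Lamb3, a laminin chain called basal over all plates, was at 1.14. Of the 18 genes 9 were called basal (background 17.2%) and 4 luminal (background 41.4%) there.

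The contractile genes were called basal in 16 of 18 cases (background 18.3%). Their median log2 ratio was -5.17, far from the 1.42 of Srf and the 1.91 of Myocd. These were 0.95 for Srf without luminal cell 36 and 0.83 for Myocd without luminal cell 25. Tpm2, a tropomyosin, stood at 820 CPM in basal cells and 3.60 CPM in luminal ones, and Actg2, a smooth muscle actin, at 408 and 3.14 CPM. Acta2, the smooth muscle actin that marks myoepithelial cells, stood at 5535 and 60.1 CPM, and Tgfb1i1, a focal adhesion protein, at 129 and 0.640 CPM. Des, the muscle intermediate filament, was the gene called luminal, with 2.05 CPM there and no call once the 12 cells with endothelial or pericyte markers were left out (log2 ratio 0.01).

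The immediate early genes, which SRF drives with ternary complex factors, were mixed. Of the 7 listed, 2 were called basal (background 18.3%) and 2 luminal (background 28.4%). Egr2 was called basal (110.1 and 21.8 CPM), as was the low Egr3, while Junb (73.3 and 201 CPM) and Fos (1161 and 2819 CPM) were called luminal. Fosb, Egr1 and Ier2 lay within 2-fold. On plate B the same genes were called, 2 basal (background 17.2%) and 2 luminal (background 41.4%). Of 5 other SRF partners 2 were called basal (background 18.3%), the ternary complex factors Elk3 (64.3 and 6.00 CPM) and Elk1 (12.3 and 2.54 CPM). On plate B 3 of the 5 partners were called basal (background 17.2%) and 1, Mrtfa, luminal (background 41.4%). The myocardin-related coactivators Mrtfa and Mrtfb were within 2-fold, at 3.85 and 4.57 CPM and at 217 and 290 CPM. Per length, Mrtfb had 24.2 RPKM in basal cells, Mrtfa 0.835 RPKM and Myocd 0.0348 RPKM, with reads in 26, 4 and 0 of 72 thinned cells.

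**Figure D5:**
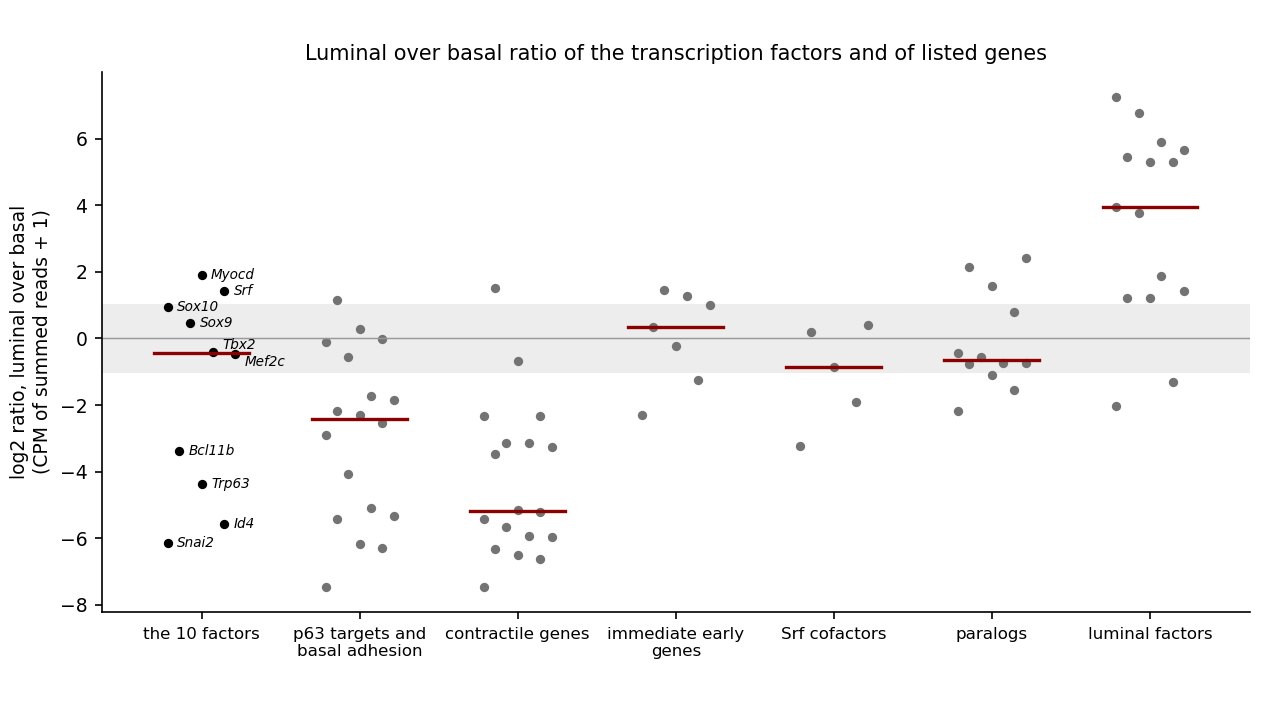
Log2 ratio of luminal over basal CPM, with 1 CPM added, of the 10 factors (black, named) and of genes of 6 lists that passed the gene filter (grey), with each median as a red bar and the range within 2-fold shaded. The contractile genes centre on -5.17 and the p63 targets on -2.42, while Srf (1.42) and Myocd (1.91) lie above the shaded range. Srf would fall within it without luminal cell 36 (0.95), and Myocd without luminal cell 25 (0.83).

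Of 12 close relatives of the factors that passed the filter, 3 were called basal and 3 luminal, shares of 25.0% each near the 18.3% and 28.4% of all genes. On plate B 3 were called basal (background 17.2%) and 5 luminal (background 41.4%). Trp53, the p53 gene, was at 474 CPM in basal cells and 277 CPM in luminal ones, with a log2 ratio of -0.77 (plate B alone -1.32), and Trp73 had 43 and 3 reads. Snai1 was at 2.00 and 1.23 CPM, within 2-fold, and Snai3 at 12.8 and 3.75 CPM, in 2 cells of each population and at a log2 ratio of 0.22 on plate B. Id3 was the relative of Id4 with the clearest luminal side, at 101 and 446 CPM, while Id1 (10.0 and 18.3 CPM) and Id2 (198 and 118 CPM) were within 2-fold. On plate B Id1 was at a log2 ratio of -0.77 and Id2 at -2.35. Tbx3, a T-box repressor close to Tbx2, stood at 53.5 and 288 CPM, called luminal. Per length it had 10.5 RPKM in basal cells and 56.6 RPKM in luminal cells, against 0.40 and 0.234 RPKM of Tbx2. Sox8 was called basal (8.18 and 1.04 CPM). Mef2a was called basal (36.7 and 16.6 CPM), but on plate B its log2 ratio was 3.92, on the luminal side. Mef2d was within 2-fold at 5.24 and 2.78 CPM, and at 2.90 on plate B. Mef2b, with 1 and 447 reads, did not pass the gene filter. Bcl11a was called luminal, at 0.357 and 3.04 CPM.

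The other regulators of epithelial-mesenchymal transition did not follow Snai2. Zeb1, Zeb2 and Twist1 had 0.642, 3.59 and 0.238 CPM in basal cells, and Zeb1 alone was called, on the luminal side and on 266 reads, with a log2 ratio of -1.08 on plate B and of 0.30 without the 12 cells of endothelial or pericyte markers. Without those cells Zeb2, whose ratio over all cells was 0.63, was at -1.84. Of 10 further transcriptional regulators that the study had listed from bulk basal cells, 9 passed the filter. All 9 were called basal (background 18.3%), with a median log2 ratio of -3.02. Irx4 was at 36.6 CPM in basal cells with no luminal read, Tshz2 at 62.9 and 2.08 CPM, Rai2 at 20.1 and 1.04 CPM and Pknox2 at 10.4 and 0.158 CPM. On plate B their log2 ratios were -1.05, -6.02, -0.70 and -0.86. There 5 of the 9 regulators were called basal (background 17.2%) and 1, Aff3 (1.71), luminal (background 41.4%). Of 15 luminal transcription factors, 13 were called luminal (background 28.4%), with a median of 3.95 over the list. Among them were Foxi1 (no basal read, 153 CPM), Foxa1 (0.975 and 216 CPM), Esr1 (0.701 and 100.2 CPM) and Elf5 (0.0119 and 50.2 CPM). Cebpb (186 and 44.5 CPM) and Runx1 (2082 and 847 CPM) were called basal. On plate B 10 of the 15 were called luminal (background 41.4%) and 3 basal (background 17.2%).

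Sox9, Srf and Sox10 were the factors read in the most luminal cells, 75, 57 and 37 of 76 at full depth, and they were set beside markers of luminal subtypes. Luminal progenitors are known by genes such as Kit, Cd14 and Csn3, and mature luminal cells by hormone receptors such as Esr1 and Pgr. Over the 76 thinned luminal cells Sox10 had a Pearson's r of 0.42 (Spearman's rho 0.47) with the number of 8 progenitor markers read in a cell and of -0.09 with that of 8 mature markers. Sox9 had -0.08 and 0.37 (rho -0.10 and 0.25), and Srf 0.03 and 0.23. Sox9 was read in 71 of these thinned cells, Sox10 in 26 and Srf in 27. All these values are descriptions over cells that share plates and mice, and none shows a relation that can be relied on. Of the 26 luminal cells with a Sox10 read, 22 also had a read of the milk protein gene Csn3, 17 of Cd14 and 12 of Kit, where the products of the shares give 14.7, 11.3 and 6.84 cells. For Esr1 and Pgr the shared cells were 12 and 14, against 13.7 and 14.0. In the same cells Sox9 had an r of 0.36 and Sox10 one of 0.23 with the number of genes detected, whose part in these values was not tested.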

How the data were processed

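The authors aligned read pairs to mm10 with Subread and assigned them to genes with featureCounts and the built-in RefSeq annotation of Rsubread, and deposited raw counts per gene for each cell, with the exon length per gene. Strand and multi-mapping settings are not given in the sources used here. Entrez identifiers were matched to RefSeq symbols (GRCm38.p6, the assembly of mm10), and 1904 identifiers without a symbol, 1.94% of the deposited counts, were left out, as were 15 mitochondrial and 124 ribosomal protein genes. Basal cells needed 50000 reads and 1000 genes, luminal cells 100000 and 1500, as in the study. No pair of cells had counts equal within sampling noise. Doublets were handled by the authors, who inspected capture sites by microscope. Counts were summed per population to CPM with exact Poisson intervals. Cells were thinned to 50000 reads without replacement (Python 3.11.15, numpy 2.4.6, scipy 1.17.1). TMM factors came from edgeR 4.0.16. Simulated data served to check the log2 ratios with their 2-fold calls and the thinning, but not the intervals. Cells are not replicates, so no test was run, and the likelihood ratio tests of the study were not repeated. Named genes were the 10 factors, every listed relative, the 3 most similar genes of each factor in 10 or more thinned basal cells, at most 4 genes per list and direction with 2-fold and 10 CPM, and cells with over 50% of a factor's reads. Other genes and cells were named after their values were seen. The factors and lists were chosen with earlier results of these data known. The deposited table that joins all cells was not read.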

Additional observations from a re-analysis of the deposited data

Results flagged for a closer look

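The 24 basal and 14 luminal cells under the read and gene thresholds enter no comparison above, and 5 values in them exceed what 3 counts would give. In these basal cells, with 265874 reads in all, Trp63 was at 22.6 CPM, from 6 reads in 6 cells, Id4 at 113 CPM, from 30 reads, and Sox9 at 1975 CPM, with a read in 23 of the 24 cells. In the luminal cells, with 412543 reads in all, Sox9 was at 7226 CPM, with a read in 11 of the 14 cells, and Srf at 48.5 CPM, with 17 of its 20 reads in luminal cell 57. Snai2, Sox10, Tbx2, Myocd, Mef2c and Bcl11b had at most 2 reads in either set.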

How the results depend on the processing

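The 4 calls on the basal side were kept in number under 11 of 14 other settings, and were 5 with the mean of the CPM of single cells and 6 without the cells with 4 endothelial or pericyte markers (chosen after seeing the data) or 4 markers of any other cell type. Leaving out each cell in turn gave 4 to 5, with Mef2c added without luminal cell 25 and Tbx2 added without luminal cell 27. The median log2 ratio over the factors, -0.43, became -0.74 on plate B alone, -0.10 between basal plate A and luminal plate C, -1.03 with the mean of the CPM of single cells, -0.21 with 10 CPM added, -2.08 without cells with 4 markers of any other cell type and -2.35 without those with 4 endothelial or pericyte markers, and lay between -0.96 (without luminal cell 25) and -0.23 (without basal cell 47) when single cells were left out. The settings without marker cells leave out 31 and 12 cells, which hold most luminal Mef2c, Tbx2 and Myocd reads. The causes of the other moves were not tested. The median share of basal cells with a read, 23.6% at 50000 reads, was 44.4% at full depth and 11.8% when 5 reads were required. TMM and median-of-ratios factors shifted the log2 scale by -0.22 and -0.26. No called ratio changed sign. Trp63, Snai2 and Id4 stayed called basal under all 16 settings, single cells left out included, with weakest log2 ratios of -3.21, -3.75 and -2.81. Sox9 stayed within 2-fold. Tbx2 and Mef2c changed sign in 1 setting each. Depth limits Tbx2, Myocd and luminal Id4 and Bcl11b. No paired analysis was possible because the labels number cells within a population and tie none to a mouse.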
